A study of Mus musculus with 2 samples.

Results

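The genes described here are the RNA-binding proteins Lin28a and Lin28b with the genes that share their let-7 circuit or their fetal and tumour expression, namely Hmga1, Hmga2, Igf2bp1, Igf2bp2, Igf2bp3, Trim71, Mycn and Dis3l2. They are 10 of the 24354 genes in the table, and each symbol matched 1 row. The set was selected on measured values of the same 2 libraries, because in the library labelled Diff–iKO Lin28a was lower and other pluripotency genes were higher. The difference of Lin28a is therefore a description and carries no test, and the question was whether the partners of Lin28a were lower with it.

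Lin28a and Lin28b bind the precursors of let-7 microRNAs and block their maturation. The terminal uridylyltransferases Tut4 and Tut7 tail the bound precursor, and the exonuclease Dis3l2 degrades it. Mature let-7 in turn represses mRNAs that carry its seed match in the 3′ UTR, and the Lin28, Hmga2, Igf2bp and Trim71 mRNAs are textbook targets. The circuit is high in early embryos, in ESCs and in some tumours, and it declines as let-7 accumulates during differentiation.

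Mouse ESCs differentiating toward mesoderm were compared with and without an induced deletion of Ino80, the ATPase of a chromatin remodelling complex. Both lines came from blastocysts homozygous for the floxed allele Ino80 2f/2f. The iKO line also carries CreER from ROSA26, a locus active in nearly all cells, whereas the control line has no CreER and is called WT in the sample labels. Both received 0.5 µM 4-OHTM, the ligand that activates CreER, so 4-OHTM is shared by the groups and CreER is not. EBs were attached on day 4, fed from day 5 with medium containing BMP4 and cultured for 7 days. The sources describe 1 culture per condition (Diff–CONT ESCs and Diff–iKO ESCs), and each gave 1 paired-end library, for which 1 µg of RNA entered a stranded mRNA kit. The 2 lines, the presence of CreER and the deletion cannot be told apart in such a design, and no difference below has a replicate check.

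The values are FPKM computed by the authors, that is, fragments divided by transcript length and library size. The steps between low values put the Diff–CONT library at about 30043000 fragments and the Diff–iKO library at 22426000, which is 1.34 times fewer. Ino80 itself was at 8.90 FPKM in Diff–CONT and 10.3 FPKM in Diff–iKO. It was not lower in the knockout library, although this value covers the whole gene and does not show the floxed exons on their own, so the library is called the library labelled Diff–iKO. The pluripotency markers Pou5f1 (60.8 and 247 FPKM, Diff–CONT first here and below) and Nanog (19.5 and 81.2 FPKM) were present in both libraries. Of 19 mesenchymal markers with a mean of at least 1 FPKM, 17 were lower and 2 higher, with a median log2 ratio of -0.94 and 8 past the cut-off lower, among them Pdgfra (19.1 and 4.65 FPKM) and Col3a1 but not Col1a1 (880 and 1199 FPKM). Marker counts here and below are over genes with a mean of at least 1 FPKM, whereas summed levels are over the whole list, lower genes included. Of 19 markers of visceral and yolk sac endoderm, 17 were lower past the cut-off and 1, Trf (4.18 and 11.2 FPKM), was higher past it, with a summed level of 499 and 61.5 FPKM. The embryonic globin Hbb-bh1 was at 88.2 FPKM and listed at 0. Markers of several cell types thus differed between the libraries, and in bulk RNA fewer cells of a type and less RNA per cell cannot be told apart.

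The let-7 family explains why these genes are read together. The RefSeq sequences (GRCm38.p6) list 9 mature 5p names of the family from 11 hairpins, and all 9 share 1 seed, bases 2 to 8, shown in capitals.
let-7a-5p: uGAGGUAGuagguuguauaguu
let-7b-5p: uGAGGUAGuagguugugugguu
let-7c-5p: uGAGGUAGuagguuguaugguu
let-7d-5p: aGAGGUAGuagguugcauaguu
let-7e-5p: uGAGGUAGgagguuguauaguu
let-7f-5p: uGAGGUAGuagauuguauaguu
let-7g-5p: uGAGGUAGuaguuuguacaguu
let-7i-5p: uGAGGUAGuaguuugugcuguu
miR-98-5p: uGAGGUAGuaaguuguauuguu

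The seed pairs with CTACCTC, and this match was searched in the annotated 3′ UTRs (GENCODE vM21, GRCm38). It occurs 21 times in 8 of the 10 genes, and 13 of the 21 matches are followed by an A, the stronger form of the site. Lin28a holds 2 matches, Lin28b, Hmga2, Igf2bp1 and Trim71 hold 4 each, and Hmga1, Igf2bp2 and Igf2bp3 hold 1 each. Mycn and Dis3l2 hold none. Among genes above the FPKM minimum, 10.1% hold a match (20.4% of those with a 3′ UTR of 2000 nt or more, as 6 of the 10 genes have), and 9 genes hold 4 or more, of which 4 belong to this set. The windows below are shown because Lin28a and Hmga2 passed the cut-off and Igf2bp1, with as many matches as Hmga2, did not. For the other 5 genes the match nearest to the stop codon is given. Each window has 30 bases of the transcribed strand, with the match in capitals.
Lin28a site 1, chr4:134005185-134005214 (minus strand): agtgcacagcctgttgaaCTACCTCatttt
Lin28a site 2, chr4:134004547-134004576 (minus strand): tttgagatcgccacaaacCTACCTCactgt
Hmga2 site 1, chr10:120364220-120364249 (minus strand): ggcgccgacattcaatttCTACCTCagcat
Hmga2 site 2, chr10:120362983-120363012 (minus strand): aatccccactcctcaataCTACCTCtgaat
Hmga2 site 3, chr10:120362545-120362574 (minus strand): ttcctgatttgcaaggaaCTACCTCcacac
Hmga2 site 4, chr10:120361687-120361716 (minus strand): tacaatcaaaacacactaCTACCTCttaag
Igf2bp1 site 1, chr11:95961774-95961803 (minus strand): agtgctgtgcgaagtaaaCTACCTCaaggt
Igf2bp1 site 2, chr11:95959353-95959382 (minus strand): aaccagcagtgctattaaCTACCTCagccc
Igf2bp1 site 3, chr11:95958759-95958788 (minus strand): cgagtataaatggatgaaCTACCTCagtcc
Igf2bp1 site 4, chr11:95958136-95958165 (minus strand): ttcacttttggttttaatCTACCTCttagc
Lin28b site 1, chr10:45381018-45381047 (minus strand): ttcacccgggcgggaagtCTACCTCatgca
Trim71 site 1, chr9:114512468-114512497 (minus strand): tacaacattgcctaagtcCTACCTCagctt
Hmga1 site 1, chr17:27563274-27563303 (plus strand): ttctcctctgttcacaaaCTACCTCtggac
Igf2bp2 site 1, chr16:22059469-22059498 (minus strand): aaaacacacaaataaaagCTACCTCaggtg
Igf2bp3 site 1, chr6:49086783-49086812 (minus strand): acgtgcatttttactcaaCTACCTCaggta

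The table lists 12 let-7 family hairpin genes, all at 0 in both libraries, as are 1136 of the 1164 rows of microRNA genes. An mRNA library does not measure mature microRNAs, so the level of let-7 is not known here.

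In the library labelled Diff–iKO 3 of the 10 genes, Lin28a, Lin28b and Hmga2, were lower past the cut-off, a fold change of at least 2 with at least 2 FPKM in either library. The study names the same thresholds without saying whether either or both libraries must reach the minimum. The ratio was below 0 for all 10 genes, with a counting interval wholly below 0 for 9. Mycn lay at 0 within counting error and Hmga1 is doubtful for the reason given below. The 3 genes are 30% of the set, beside 8.39% of all 12376 genes above the minimum that were lower past the cut-off (15.1% in either direction, 6.73% higher). No gene of the set was higher past the cut-off. Among the 6773 genes within the set's range of mean FPKM, 4.09% were lower past the cut-off. The median log2 ratio of the 10 genes was -0.60, against 0.00 for all genes and 0.03 for genes of like level, of which 47.2% were lower. Without Hmga1 and Mycn the median of the set was -0.83. These genes were left out after their values were seen, and Mycn for its value near 0, so the lower median is no check. Because the set was proposed from these values, these shares are given side by side and nothing is read from their difference.

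**Figure D1:**
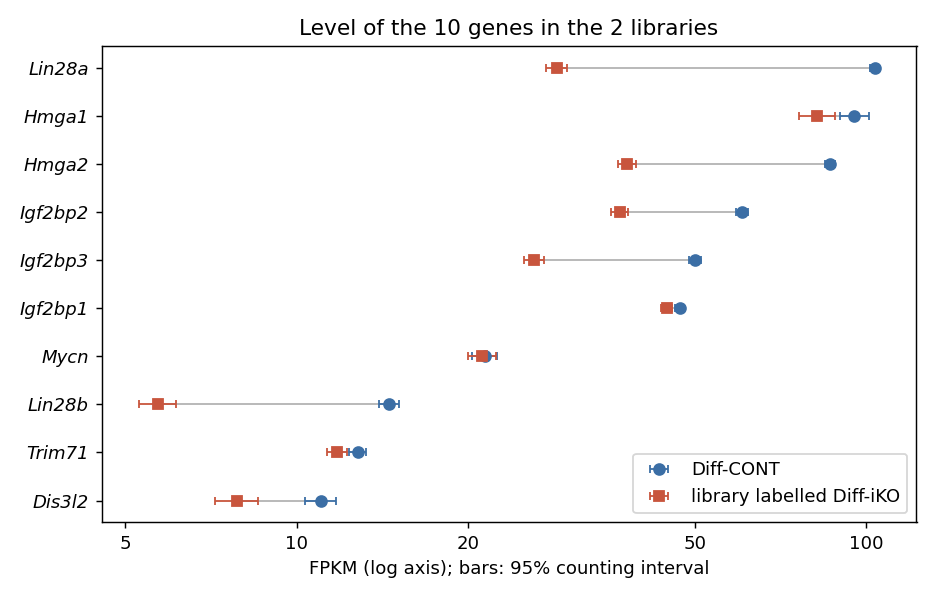
Levels of the 10 genes in FPKM on a log axis. Circles are Diff–CONT and squares the library labelled Diff–iKO, 1 library each, and bars are 95% counting intervals. Lin28a is the highest of the 10 in Diff–CONT at 103 FPKM and lies below 4 of the others at 28.6 FPKM in the second library.

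Lin28a, the form that is abundant in ESCs, was at 103 FPKM in Diff–CONT, and the library labelled Diff–iKO held 28.6 FPKM. These levels rest on about 10307 and 2129 fragments. The log2 ratio was -1.85 with an exact (Clopper-Pearson) 95% interval of -1.92 to -1.79, so 27.7% of the level was left and the difference was 3.61-fold. This interval, like all below, covers counting error only and says nothing about the spread between cultures. The gene lies at chr4:134003330-134018841 on the minus strand.

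Lin28b, the paralog that also acts in fetal liver and many tumours, had a lower level of 14.5 and 5.71 FPKM. Its log2 ratio was -1.35 (95% interval -1.48 to -1.23), which is 2.55-fold lower from about 2278 and 667 fragments. The paralogs lie on different chromosomes, Lin28b at chr10:45376620-45486395 on the minus strand, and both were lower. Their summed level was 118 and 34.3 FPKM, a 3.44-fold difference. Lin28a made up 87.7% and 83.4% of that sum, so the form that dominates was the same in both.

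Hmga2, an AT-hook protein of fetal chromatin and a classic let-7 target, was at 86.4 and 38.0 FPKM. Its log2 ratio was -1.19 (95% interval -1.25 to -1.13), which is 2.28-fold lower, and of the 3 genes past the cut-off it lies nearest to it. The gene (chr10:120361275-120476469, minus strand) overlaps the antisense gene 9230105E05Rik, which was at 0.0161 and 0.108 FPKM.

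Hmga1, the second AT-hook gene (chr17:27556497-27563674, plus strand), was at 95.3 and 82.1 FPKM, a log2 ratio of -0.22 (95% interval -0.35 to -0.08). How reads that align to more than 1 place were counted is not given in the sources used here, for Hmga1 as for the other genes. Hmga1 is taken with doubt because its fragments, and with them the interval, depend on which transcript length is used. The library labelled Diff–iKO holds 726 fragments with the shortest transcript used, of 584 nt, and 3335 with the longest. Hmga1 also overlaps AI413582 on the opposite strand, which was at 11.5 and 12.3 FPKM, and whether the counting used strand is not given in the sources used here. The level of Hmga1 was 1.10 times that of Hmga2 in Diff–CONT, against 2.16 times in the library labelled Diff–iKO.

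The 3 Igf2bp genes code for fetal mRNA-binding proteins that stabilise or localise transcripts such as those of Igf2, H19, Actb and Myc. Igf2bp3 was at 50.1 and 26.1 FPKM, a log2 ratio of -0.94 (95% interval -1.01 to -0.87), and is the gene just outside the cut-off. Igf2bp2 was at 60.6 and 36.9 FPKM, a log2 ratio of -0.71 (95% interval -0.78 to -0.65). Igf2bp1 was at 47.1 and 44.7 FPKM, a log2 ratio of -0.08 (95% interval -0.12 to -0.04). The 3 paralogs thus differed from one another by more than counting error. Their summed level was 158 and 108 FPKM, and the share of Igf2bp1 in it was 29.9% and 41.5%, that of Igf2bp2 38.4% and 34.3%, and that of Igf2bp3 31.7% and 24.3%. Igf2bp1 was the lowest of the 3 in Diff–CONT, whereas the library labelled Diff–iKO had it highest. Igf2bp3 (chr6:49085223-49214957, minus strand) overlaps Malsu1 on the opposite strand, which was at 14.7 and 11.2 FPKM. Igf2bp2 lies at chr16:22059009-22163299 and Igf2bp1 at chr11:95957163-96005940, both on the minus strand.

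Trim71, an E3 ligase and mRNA repressor of ESCs that was first found as a let-7 target in the nematode (as lin-41), was at 12.8 and 11.8 FPKM (chr9:114507133-114564369, minus strand). Its log2 ratio was -0.12 (95% interval -0.20 to -0.05). Mycn, a MYC family transcription factor of stem and neural crest cells (chr12:12936093-12941914, minus strand), was at 21.4 and 21.2 FPKM. Its log2 ratio of -0.01 (95% interval -0.12 to 0.09) is the only one of the 10 whose interval includes 0. Dis3l2 (chr1:86703808-87050095, plus strand), which degrades uridylated precursors, was at 11.0 and 7.85 FPKM, a log2 ratio of -0.49 (95% interval -0.65 to -0.33).

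**Figure D2:**
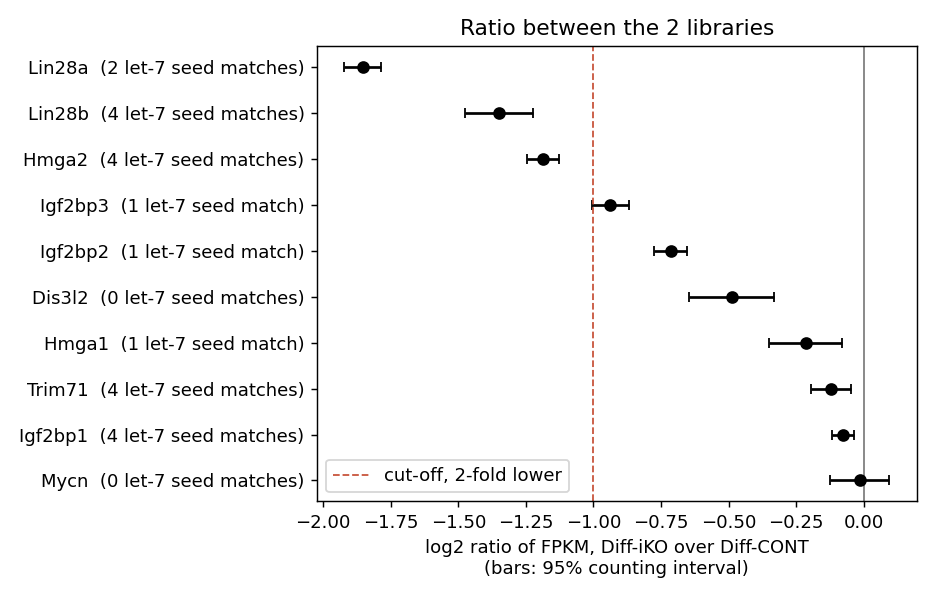
Log2 ratio of FPKM (library labelled Diff–iKO over Diff–CONT) of the 10 genes, with the number of let-7 seed matches beside each name. Points are 1 ratio each and bars 95% counting intervals. Only Lin28a, Lin28b and Hmga2 have intervals wholly beyond the dashed line at 2-fold, and the 4 genes with 4 matches are split between ratios beyond that line and ratios near 0.

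The order of the levels also differed. In Diff–CONT it ran from Lin28a over Hmga1, Hmga2, Igf2bp2, Igf2bp3, Igf2bp1, Mycn, Lin28b and Trim71 to Dis3l2, and no neighbours had overlapping counting intervals. In the library labelled Diff–iKO it ran from Hmga1 over Igf2bp1, Hmga2, Igf2bp2, Lin28a, Igf2bp3, Mycn, Trim71 and Dis3l2 to Lin28b. There Hmga2 and Igf2bp2 had overlapping intervals. All 10 genes remained above the minimum in both libraries, the lowest being Lin28b with 5.71 FPKM. The genes whose pair of levels was nearest to that of Lin28a, by distance in log2(FPKM + 0.1) over the 2 libraries, were Ivns1abp (105 and 32.8 FPKM, distance 0.20), the linker histone gene H1f0 (117 and 25.1 FPKM, distance 0.26) and Bnip3 (81.8 and 29.2 FPKM, distance 0.34). With 2 libraries such a distance describes levels alone.

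**Figure D3:**
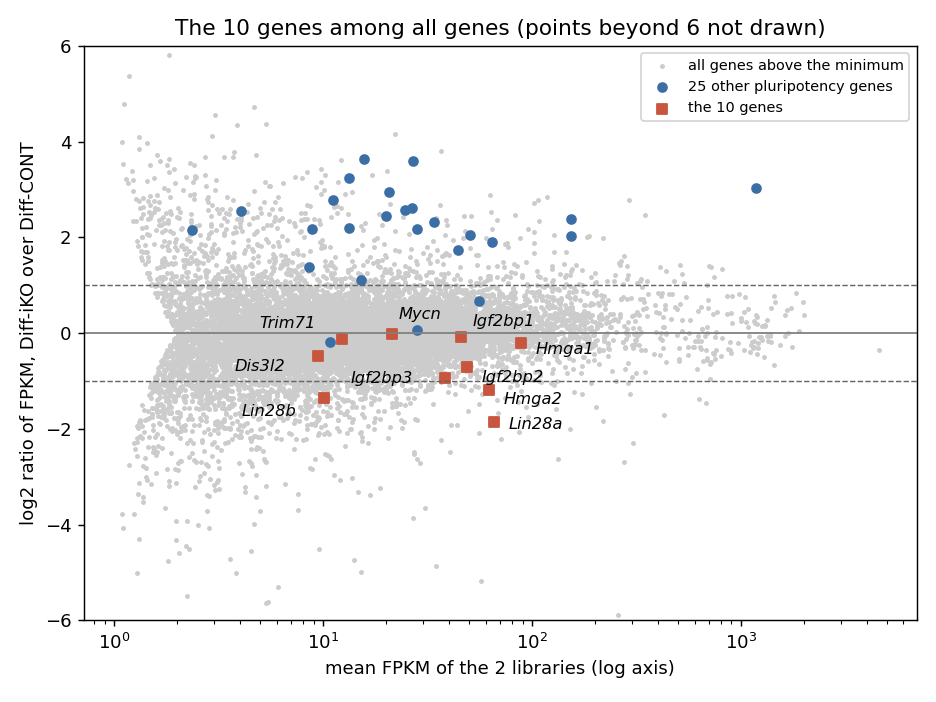
Log2 ratio of FPKM against mean FPKM (log axis), 1 grey point per gene above the minimum, with the 10 genes as red squares and 25 other pluripotency genes as blue circles. Dashed lines mark 2-fold. The red squares lie at or below 0 and 24 of the 25 blue circles above it.

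Lin28a was set beside the genes with which it is usually listed as a marker of ESCs. Of the 25 pluripotency genes outside the set, 22 rose past the cut-off and none fell past it, with a median log2 ratio of 2.17 on the FPKM + 0.1 scale. Dppa5a was at 258 and 2115 FPKM, the Nodal co-receptor Tdgf1 at 49.8 and 259 FPKM and the POU factor Pou5f1 at 60.8 and 247 FPKM. Sox2 (42.7 and 68.2 FPKM), Sall4 (27.5 and 28.6 FPKM) and Tbx3 (11.5 and 10.1 FPKM) did not pass. Lin28a was the only one of the 28 genes of the full list that fell past the cut-off. In Diff–CONT there was 1.70 times as much Lin28a as Pou5f1 in FPKM, against 0.116 times in the library labelled Diff–iKO. The set was chosen for this contrast, so it is a description.

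Of 28 genes for let-7 processing, action and decay, 4 fell past the cut-off and none rose. The list includes Lin28a, Lin28b, Dis3l2 and Trim71. Its median log2 ratio was -0.06, and 0.01 over the other 24 genes, against -0.01 for all 13145 genes with a mean of at least 1 FPKM. Of these other genes 23 reached the FPKM minimum and 2 fell past the cut-off. That is near the share over all genes above the minimum, of which 8.39% were lower past it. Besides Lin28a and Lin28b, the genes that fell were Zcchc11 (Tut4), the uridylyltransferase that Lin28a recruits, and Prkra, a partner of Dicer. Zcchc11 was at 39.8 and 18.5 FPKM, a log2 ratio of -1.11 (95% interval -1.17 to -1.04). Prkra was at 21.6 and 10.2 FPKM, a log2 ratio of -1.08 (95% interval -1.26 to -0.89). The paralog Zcchc6 (Tut7) was at 16.1 and 16.3 FPKM, Dicer1 at 18.0 and 17.9 FPKM and the nuclear processing enzyme Drosha at 35.9 and 40.5 FPKM. By mean FPKM the highest genes of the list were the RNA helicases Ddx5 (250 and 252 FPKM) and Ddx17 (245 and 191 FPKM). In Diff–CONT alone Hnrnpa1 was the highest (257 and 164 FPKM). Of the 3 enzymes that act on the Lin28-bound precursor, Zcchc11 thus passed the cut-off, while Dis3l2 and Zcchc6 did not. Zcchc6, Dicer1 and Drosha were named after their values were seen.

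Of 61 known let-7 target genes, 58 reached the FPKM minimum, and 11 fell and 3 rose past the cut-off, beside 8.39% lower and 6.73% higher over all genes above the minimum. Of the 60 with a mean of at least 1 FPKM, 42 were lower and 18 higher, and their median log2 ratio was -0.23. Without the genes of the set the median was also -0.23 over 51 genes, with 8 past the cut-off lower and 3 higher. Among those that fell, the collagen gene Col3a1 was at 386 and 187 FPKM, the membrane linker gene Rdx at 115 and 54.2 FPKM and Lin28a came next by level. The genes that rose were Thbs1 (228 and 595 FPKM), the phosphate transporter gene Slc20a1 (68.6 and 180 FPKM) and Tmed5 (13.5 and 27.3 FPKM). Nap1l1, at 353 and 299 FPKM, did not pass. Col3a1 is also a mesenchymal marker, a list of which 17 of 19 genes were lower (median log2 ratio -0.94). Its summed level of 3514 and 3664 FPKM is carried by Col1a1 and Fn1 (672 and 1150 FPKM), the 2 of those 19 genes that were higher. The part of these markers in the target genes was not tested.

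Across all genes with an annotated 3′ UTR above the minimum, the ratio was described by the number of seed matches, a feature that the rule did not use by itself, although let-7 targets were put in the set by name. Genes with 0 matches (10824 genes) had a median log2 ratio of 0.00, those with 1 match (1062 genes) -0.04, and those with 2 matches (127 genes) 0.01. The 21 genes with 3 or more had a median of -0.32, and 5 of them (23.8%) fell past the cut-off, against 8.02% of genes without a match. Of these 21 genes, 4 are of the set, and without them 3 of 17 fell (17.6%) with a median of -0.32. Such 3′ UTRs are long, with a median of 4445 nt against 994 nt in genes without a match. The 434 genes without a match whose 3′ UTR was at least as long as 4445 nt had a median of -0.15, and 10.6% of them fell past the cut-off. Within the set the number of matches did not order the ratios. Hmga2 and Lin28b with 4 matches were at -1.19 and -1.35, and Trim71 and Igf2bp1 with 4 matches at -0.12 and -0.08. The 4 matches of Trim71 are all followed by an A, as are 3 of the 4 in Igf2bp1, but 1 of 4 in Hmga2 and 1 of 4 in Lin28b.

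**Figure D4:**
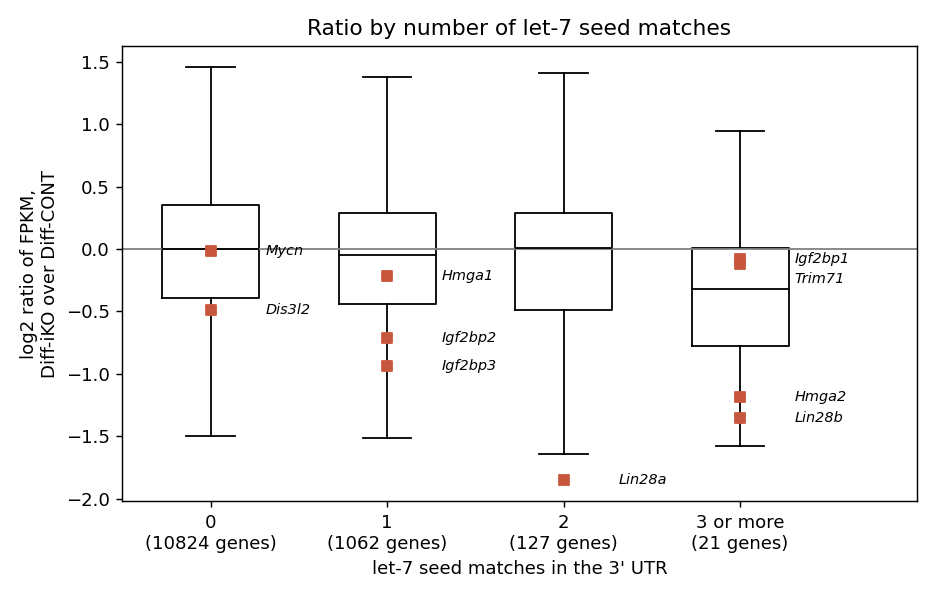
Log2 ratio of FPKM by number of let-7 seed matches in the 3′ UTR. Boxes show the median and quartiles of all genes above the minimum, whiskers reach 1.5 times the interquartile range with points beyond them not drawn, and red squares are the genes of the set. The class with 3 or more matches holds 21 genes with a median of -0.32, and its 4 squares span -1.35 to -0.08.

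The transcripts bound by Igf2bp proteins and other fetal growth genes form a list of 17, of which 7 fell and 1 rose past the cut-off. Over all genes above the minimum, 8.39% were lower and 6.73% higher past it. The median log2 ratio of the list was -0.40, against -0.01 for all genes with a mean of at least 1 FPKM. Those that fell were Igf2, Gpc3, Mest, Dlk1, Plagl1, Afp and Igf1. Of the bound transcripts named above, Igf2 fell past the cut-off, whereas H19, Actb and Myc did not pass it. The growth factor gene Igf2, a transcript from which the Igf2bp proteins take their name, was at 1000.4 and 364 FPKM, a log2 ratio of -1.46 (95% interval -1.51 to -1.41). Gpc3, a glypican that restrains fetal growth, was at 659 and 199.9 FPKM, and the imprinted gene Mest at 475 and 73.4 FPKM. Ptgs2 rose, from 16.2 to 47.1 FPKM. H19 (1925 and 1576 FPKM) and Actb (1113 and 1063 FPKM), the highest of the list, did not pass. The list also holds Afp, a yolk sac endoderm gene at 45.9 and 0.422 FPKM, and the part of the lower endoderm markers in this list was not tested.

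A list of 20 genes holds partners and targets of Hmga and Lin28 proteins and other HMG genes (Hmgb1, Hmgb2, Hmgb3, Hmgn1 and Hmgn2). Over all genes above the minimum, 8.39% were lower and 6.73% higher past the cut-off. In the list 4 fell and 3 rose past it, with a median log2 ratio of -0.19. Besides Igf2, these were Plagl1 (64.4 and 17.0 FPKM), the HMG box gene Hmgb3 (42.9 and 12.4 FPKM) and Snai2 (10.4 and 3.13 FPKM), and, in the other direction, the poly(A)-binding protein gene Pabpc1 (457 and 919 FPKM), L1td1 (20.5 and 67.9 FPKM), whose product binds Lin28a in ESCs, and the CDK inhibitor gene Cdkn2b (14.4 and 37.0 FPKM). L1td1 and Lin28a therefore stood on opposite sides. Of 26 other RNA-binding proteins of fetal or stem cells, 3 fell past the cut-off (Zfp36l1, Msi1 and Mex3b) and none rose, with a median of -0.08. These counts stand beside the same 8.39% lower and 6.73% higher over all genes above the minimum. The neural stem cell protein gene Msi1 was at 34.2 and 12.3 FPKM, the mRNA decay factor gene Zfp36l1 at 61.9 and 29.3 FPKM and Mex3b at 11.1 and 5.11 FPKM. Ybx1 (233 and 208 FPKM) and Hnrnpu (183 and 194 FPKM), the highest of that list, did not pass. None of the 13 genes of the MYC family and network with a mean of at least 1 FPKM passed. The highest of them by mean FPKM were Max, the partner of MYC proteins, at 28.7 and 37.6 FPKM, and Mycn.

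**Figure D5:**
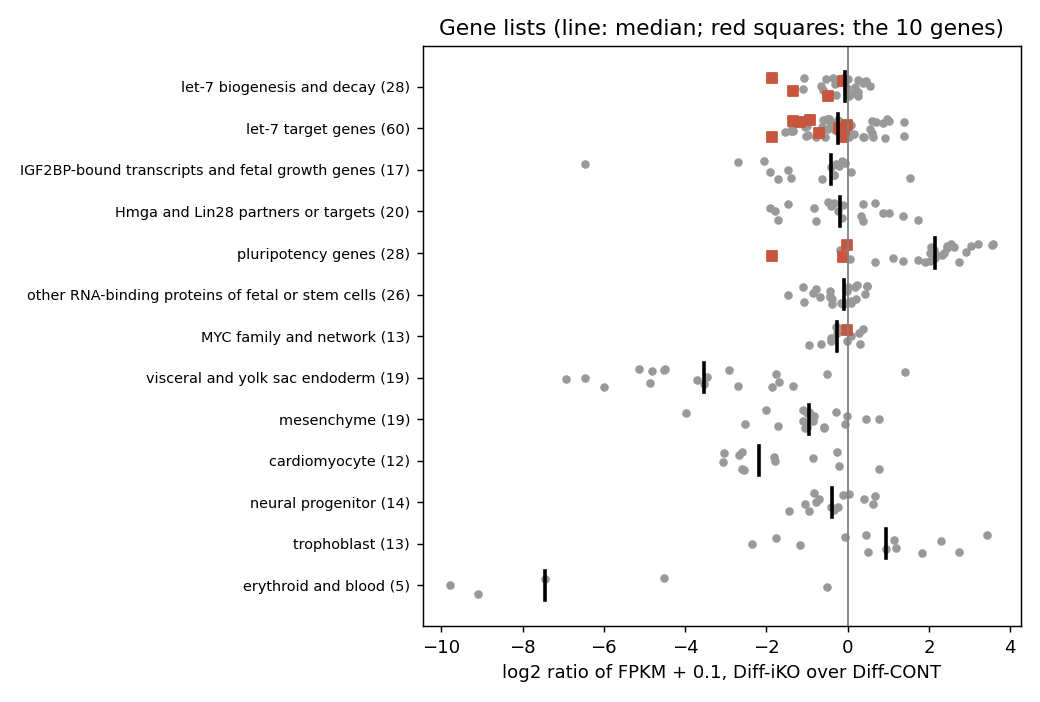
Log2 ratio of FPKM + 0.1 for each gene (points) of 13 lists, with the number of genes with a mean of at least 1 FPKM in brackets, the median as a line and the 10 genes as red squares. The pluripotency list has a median of 2.15 with Lin28a far to the left of it, and the lists of let-7 target and biogenesis genes have medians of -0.23 and -0.06.

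Markers of other cells also differed between the libraries, not all in the same direction. Beside the endoderm markers, 4 of 5 erythroid and blood genes and 7 of 12 cardiomyocyte genes fell past the cut-off. The 4 are globin genes with at most 0.230 FPKM in the library labelled Diff–iKO, so they reached the mean of 1 FPKM through Diff–CONT. Without that minimum the median log2 ratio was -2.40 in place of -7.44 for erythroid and blood genes. It was -1.09 in place of -2.18 for cardiomyocyte, -3.50 in place of -3.54 for endoderm and -0.71 in place of -0.37 for neural progenitor genes. The whole lists, of 12 and 17 genes, summed to 194 and 4.68 FPKM and to 104 and 32.9 FPKM. Of the neural progenitor genes 2 of 14 fell, and of the trophoblast genes 3 of 13 fell and 7 rose. The 3 were Cdx2 (4.00 and 0.705 FPKM), Eomes (5.25 and 1.48 FPKM) and Hand1 (70.8 and 31.3 FPKM). The 7 were Tfap2c, Ascl2, Prl3d1, Prl2c2, Tpbpa, Krt7 and Plac1. The whole trophoblast list of 16 genes summed to 1081 and 1493 FPKM. Most of that sum comes from the keratin genes Krt8 (407 and 575 FPKM) and Krt18 (522 and 721 FPKM), which did not pass the cut-off. Of the defining markers, Myh6 (1.85 and 0.207 FPKM), Nkx2-5 (1.24 and 0.533 FPKM), Elf5 (0.0687 and 0.299 FPKM) and Gata1 (0.621 and 0.416 FPKM) were below the minimum in both libraries. Their part in the lower levels of Lin28a, Lin28b and Hmga2 was not tested.

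The promoters of the 3 genes past the cut-off are shown to let their sequences be compared (RefSeq, GRCm38.p6, from 250 bases before to 50 bases after the start, strand of the gene). Capitals mark the motifs searched on both strands, namely the GC box GGGCGG, the CCAAT box CCAAT, the TATA box TATAAA, the E box CACGTG bound by MYC proteins, and GCCATNTT, the core bound by YY1, a partner of the Ino80 complex.
Lin28a promoter, chr4:134018767-134019066 (minus strand): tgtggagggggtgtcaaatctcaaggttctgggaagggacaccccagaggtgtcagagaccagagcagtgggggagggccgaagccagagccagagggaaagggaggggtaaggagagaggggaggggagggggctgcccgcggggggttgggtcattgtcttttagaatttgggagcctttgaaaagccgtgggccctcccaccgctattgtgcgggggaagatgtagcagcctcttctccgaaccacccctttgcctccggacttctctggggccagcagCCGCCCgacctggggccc
Lin28b promoter, chr10:45470152-45470451 (minus strand): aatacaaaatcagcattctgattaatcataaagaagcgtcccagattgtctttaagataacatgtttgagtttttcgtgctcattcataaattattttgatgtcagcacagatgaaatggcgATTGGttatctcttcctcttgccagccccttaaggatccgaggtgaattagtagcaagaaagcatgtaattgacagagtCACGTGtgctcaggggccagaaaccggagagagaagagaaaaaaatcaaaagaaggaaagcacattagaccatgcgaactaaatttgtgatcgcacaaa
Hmga2 promoter, chr10:120476420-120476719 (minus strand): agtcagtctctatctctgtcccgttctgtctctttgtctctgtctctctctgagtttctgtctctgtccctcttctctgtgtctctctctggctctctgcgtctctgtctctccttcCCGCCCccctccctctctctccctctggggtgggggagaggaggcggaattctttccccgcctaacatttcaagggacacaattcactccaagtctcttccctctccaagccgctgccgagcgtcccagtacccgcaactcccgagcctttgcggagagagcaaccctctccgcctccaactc

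The window of Lin28a has 63.3% G and C and holds 1 GC box, that of Hmga2 57.7% and 1 GC box, and that of Lin28b 39.0%, 1 CCAAT box and 1 E box. The median over all 32851 promoters was 52.7%. Promoter entries were found for 9 of the 10 genes, and Igf2bp1 had none. A GC box occurs in 7 of the 9 and in 35.7% of all promoters, a CCAAT box in 3 and in 37.4%, and an E box in 2 (Lin28b and Igf2bp3) and in 7.15%. The TATA box (13.6% of all promoters) and the YY1 core (6.05%) occur in none of the 9. These are matches of letters and not sites. None of the 5 motifs occurs in all 3 promoters, and the window of Lin28b follows the RefSeq start, which lies inside the longer gene of the other annotation.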

How the data were processed

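Poly(A) RNA of 1 Diff–CONT and 1 Diff–iKO culture was sequenced. The authors deposited FPKM values of 24354 genes, made with STAR 2.7.9a on mm10 and Cuffnorm of Cufflinks 2.2.1 per the labels; the gene annotation and the strand setting are not given in the sources used here. The 2 columns were assigned by name, and 0 other columns of values were present. From the FPKM values the ratio per gene was computed without a pseudocount. The cut-off was a fold change of at least 2 where either library reached 2 FPKM. No test was made, since conditions had 1 library each. Medians of 13 gene lists used FPKM + 0.1 and genes with a mean of at least 1.

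Fragments were recovered from FPKM steps in genes with 1 transcript of at least 1000 nt, where 86.6% of 1228 low values (Diff–CONT) and 85.9% of 1334 (Diff–iKO) lay within 0.2 of a whole multiple, against 40% by chance. Fragments per gene use the shortest RefSeq-matched coding transcript, or another transcript where none matched, and are approximate. Intervals are exact Clopper-Pearson 95% intervals for counting error only. Genes were matched to GENCODE vM21 by symbol (23315) or synonym (642), and 397 were not matched.

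The members and lists were chosen with earlier results of these data known. Named genes were the 10 genes, Ino80, the 3 genes nearest to Lin28a and, of each list, the genes past the cut-off (where over 6, the 3 highest by mean FPKM in each direction) and the 2 highest; not all are printed, and marker lists are given by their defining markers. An item withheld from this text is not reported here. Sall4, Sox2 and Tbx3 were named after their values were seen. The steps were tested on simulated data. Alternatives were FPKM minimums of 1, 5 and none, pseudocounts of 0.1 and 1, fold changes of 1.5 and 4, 3 other scalings, and longest transcripts. Tools were Python 3.11.15, scipy 1.17.1, pandas 2.3.3, numpy 2.4.6 and matplotlib 3.10.9.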

Additional observations from a re-analysis of the deposited data

How the results depend on the processing

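No paired analysis was possible because each condition has 1 library, and for the same reason no replicate could be left out. With a fold change of 1.5, 5 of the 10 genes were past the cut-off lower (Igf2bp2 and Igf2bp3 added), with 20 let-7 target genes lower and 9 higher. With a fold change of 4 these counts were 0, 0 and 0. Scaling to the same sum of FPKM shifted all log2 ratios by -0.09. It gave medians of -0.70 for the 10 genes, -0.15 for the let-7 biogenesis list and -0.33 for the target list, and it put Igf2bp3 past the cut-off at -1.03. Under all 5 alternatives for a single gene Lin28a stayed between -1.95 and -1.82, Lin28b between -1.44 and -1.21 and Hmga2 between -1.28 and -1.17. The direction of Mycn turned under upper quartile scaling (0.0034). No symbol had more than 1 row, so summing rows was not applicable. Leaving out Hmga1 and Mycn gave a median of -0.83 for the other 8 genes, and leaving out the 4 genes of the set gave 0.01 for the biogenesis list, both chosen after seeing the data. With the shortest transcripts of the main setting each of the 10 levels rests on 510 fragments or more. With the longest transcript chosen in the same way the Hmga1 level in Diff–iKO rests on 3335 in place of 726.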
